A study of Homo sapiens with 5 samples.

Results

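A set of 49 interferon-stimulated and RNA-sensing genes was followed in RPE-1 cells after knockdown of FAM53C. They were chosen by gene symbol, from what is known of the pathway, and were sorted into 11 sensors with their adaptors, 5 transcription factors and 33 effectors. All 49 symbols were found among the 64252 gene rows of the count table, and 39 had enough reads to be tested. RPE-1 is an immortalized human epithelial line from the retina. Cells of the siCtrl group (genotype label WT, 3 libraries) received the negative control siRNA ON-TARGET Control #1, and cells of the siFAM53C group (genotype label FAM53C KD, 2 libraries) received an ON-TARGETplus pool of siRNAs against FAM53C. Both groups were transfected with Lipofectamine RNAiMAX, the labels give 5 µM of siRNA, and polyA RNA was collected at 48 hr. Every library thus comes from cells that took up a double-stranded RNA and a lipid carrier, and a response shared by both groups was not measured here. The groups also differ in the sequences of the siRNAs, so these sequences and the loss of FAM53C cannot be told apart. The labels do not say whether libraries came from separate cultures, so a p-value measures the spread between libraries only.

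Cells detect foreign nucleic acid with sensors that recognize double-stranded RNA or DNA. The RNA helicases encoded by IFIH1 (MDA5) and by RIGI signal through the mitochondrial adaptor MAVS and the kinase TBK1 to the transcription factor IRF3, which turns on the genes of type I and type III interferons. Secreted interferon binds its receptors, the kinases JAK1 and TYK2 are activated, and a complex that contains STAT2 and IRF9 binds interferon-stimulated response elements in promoters. The induced genes include the sensors themselves, which closes a feedback loop, and effectors that bind viral RNA, stop translation or modify proteins. A short duplex such as an siRNA can engage some of these sensors, which is why the pathway is commonly examined in siRNA experiments.

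The libraries held 19260124 to 25615415 counts on genes. Levels are given as CPM, counts scaled to a common library size with TMM factors, and positions are on GRCh38. FAM53C itself (ENSG00000120709) lies on the plus strand of chromosome 5, from 138331935 to 138349729. It had 60.9, 59.7 and 57.6 CPM in siCtrl and 14.2 and 22.3 CPM in siFAM53C. Log2 fold changes are siFAM53C against siCtrl throughout, and that of FAM53C was -1.71 (edgeR, SE 0.19, adjusted p = 0.003625). The keratin transcripts KRT8 and KRT18 were abundant, whereas RPE65, a defining enzyme of retinal pigment epithelium, had 0 counts in every library. The 6 markers of that epithelium summed to 35.1 to 50.5 CPM in siCtrl and 35.9 to 46.2 CPM in siFAM53C, nearly all of it from MITF (34.0 to 48.8 CPM), a transcription factor also found in other cell types. The 4 epithelial markers summed to 384 to 467 CPM in siCtrl and 500.2 to 501.8 CPM in siFAM53C, nearly all of it from KRT8 and KRT18. The other epithelial markers were almost absent, with 0 to 5 counts per library for KRT19 and 0 to 4 for EPCAM. Leukocyte markers, examined because blood cells express many interferon-stimulated genes, summed to 3.30 to 4.51 CPM in siCtrl and 4.16 to 4.67 CPM in siFAM53C. Of these 5 markers, CD3E and MS4A1 were at 0 in every library, and most of the sum came from CSF1R. The part of these marker lists in the differences described here was not tested, and in bulk RNA fewer cells of a type and less RNA per cell cannot be told apart. On the first principal component, siCtrl replicate 3 (33.7) and siFAM53C replicate 2 (44.9) stood apart from siCtrl replicates 1 and 2 (-31.5 and -47.4). In between lay siFAM53C replicate 1 (0.26), which the component did not place on a side. The sides used here were set by the column names, which carry the number 3 for siCtrl replicate 3 and siFAM53C replicate 2. By this rule siFAM53C replicate 1 was put with siCtrl replicates 1 and 2. Each difference is therefore also given within each side (siFAM53C replicate 1 against siCtrl replicates 1 and 2, and siFAM53C replicate 2 against siCtrl replicate 3), and from a second fit that adds the side as a term. That fit was chosen with earlier results of these data known.

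No interferon-stimulated or RNA-sensing gene passed the threshold of 0.05 on the adjusted p. Of the 39 tested, 0 were higher and 0 lower (edgeR), where 0.489% of the 15341 genes tested were called higher and 3.47% lower. At an unadjusted p under 0.05, 9 were higher (ISG15, IFIT1, IFI44L, PARP9, DDX60, TRIM21, STAT2, DHX58 and IFIH1) and 0 lower, a share of 23.1% beside 6.61% of all genes higher and 10.5% lower. DESeq2's Wald test called 1 gene, IFIT1, where it called 2.02% of its genes higher and 6.98% lower. The fit that adds the side called 9 higher and 0 lower, again 23.1% of those tested, where 6.76% of all genes were called higher and 10.7% lower in that fit. These 9 were ISG15, IFIT1, IFI44L, PARP9, DDX60, TRIM21, STAT2, IFIH1 and UBE2L6.

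The values lay mostly on the higher side. The log2 fold change was above 0 for 33 of the 39 genes (84.6%), against 51.8% of all genes tested, and its median was 0.21, against 0.016 for all genes. In 13 genes both siFAM53C libraries were above every siCtrl library (33.3%, where 16.7% of all genes were), and in 1 gene, OAS3, both were below (18.8% of all genes were). ISG20 passed the filter on low counts only through its siFAM53C libraries; without it, 32 of 38 genes were above 0, 12 had both siFAM53C libraries above every siCtrl library, and the median was 0.19. Within the 2 sides the medians came to 0.27 and 0.26, against 0.013 on both sides for all genes, and 29 of the 39 genes were above 0 on both, as were 36.1% of all genes. The median difference of the group from the siCtrl mean was 0.022, 0.10 and -0.060 on the log2 scale for siCtrl and 0.23 and 0.16 for siFAM53C. The genes were picked with earlier results known, and no test was made of the group as a whole. By role, the median was 0.21 for 25 effectors, 0.15 for 10 sensors and 0.42 for 4 transcription factors.

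**Figure D1:**
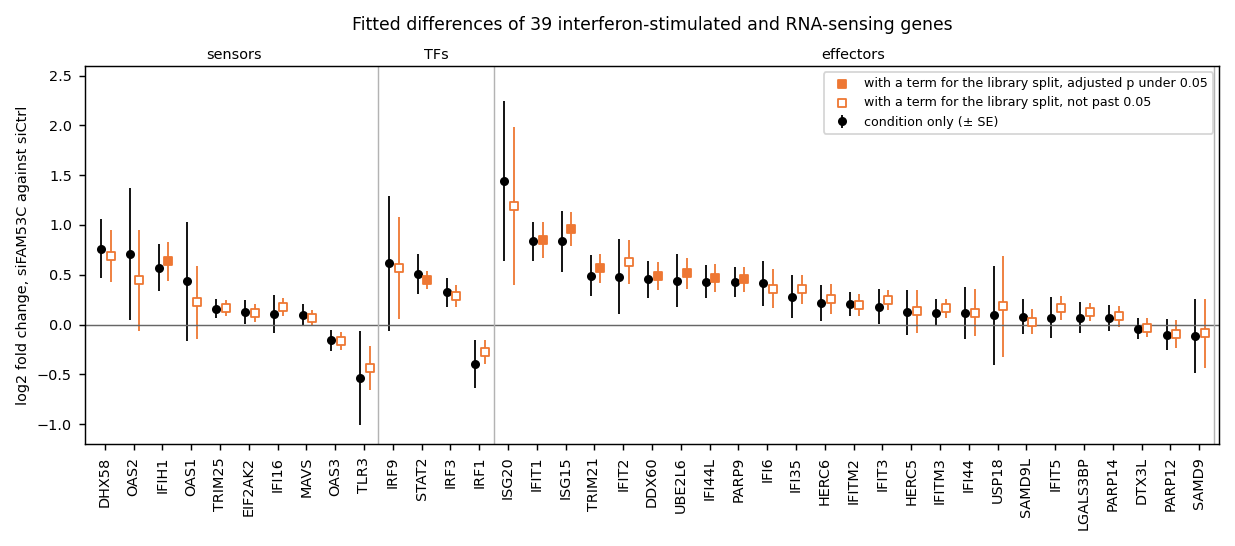
Log2 fold change (y axis, siFAM53C against siCtrl) of the 39 tested genes, ordered by role (TFs are transcription factors). Black points are the fit with the condition only, orange squares the fit with a term for the library split, bars are standard errors, and filled squares mark the 9 genes with an adjusted p under 0.05 in the latter fit. Of the black points, 33 lie above 0 and 6 below.

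**Figure D2:**
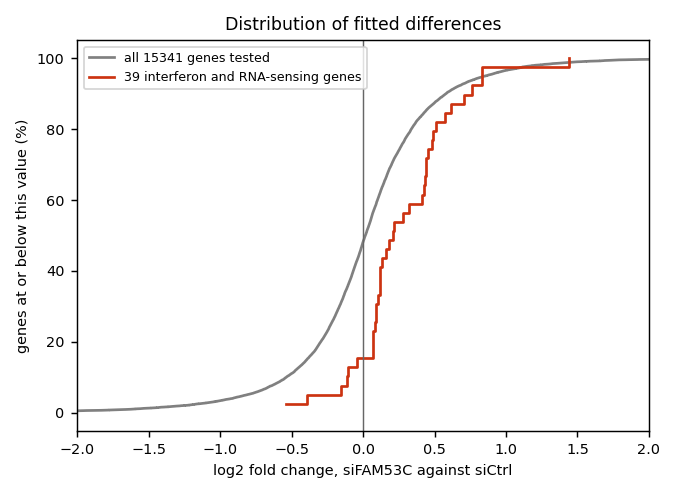
Share of genes (y axis, %) at or below each log2 fold change (x axis), for all 15341 genes tested in grey and the 39 interferon-stimulated and RNA-sensing genes in red. The red curve lies to the right of the grey over most of the range, with medians of 0.21 and 0.016.

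Promoter sequences of these genes are shown before the values of each gene, since the interferon-stimulated response element (ISRE) is a DNA element that many of them are known to share. The genes were chosen from what is known of this pathway, so a high share with the element comes with the choice. That share does not bear on a response in these cells. RefSeq promoters on GRCh38.p14, from 250 bases before to 50 bases after an annotated start, were found for 40 of the 49 genes. The ISRE core searched was GAAANNGAAA on either strand. It occurred in at least 1 promoter of 27 of the 40 genes (67.5%), against 1195 of 27305 genes in the whole table (4.38%). The windows below are from genes at an unadjusted p under 0.05, from DTX3L, OAS3 and EIF2AK2, whose values were nearer 0, and from BST2, which had too few reads to be tested, each 5' to 3' on the strand of its gene, with the core or its reverse complement in capitals.

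ISG15: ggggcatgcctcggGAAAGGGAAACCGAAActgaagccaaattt

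IFIT1: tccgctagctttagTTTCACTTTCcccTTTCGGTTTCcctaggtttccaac

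IFIH1: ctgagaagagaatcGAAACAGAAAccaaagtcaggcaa

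DDX60: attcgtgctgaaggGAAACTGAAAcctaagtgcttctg

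TRIM21: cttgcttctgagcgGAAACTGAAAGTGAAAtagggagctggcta

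PARP9: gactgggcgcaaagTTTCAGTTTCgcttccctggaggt

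DTX3L: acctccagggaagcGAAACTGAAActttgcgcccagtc

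OAS3: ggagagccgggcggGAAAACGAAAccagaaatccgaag

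EIF2AK2: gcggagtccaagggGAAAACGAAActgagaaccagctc

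BST2: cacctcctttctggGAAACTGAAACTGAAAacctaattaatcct

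The ISG15 window lies at chr1:1013370-1013413 and holds 2 overlapping cores. The IFIT1 window lies at chr10:89392493-89392543, with 2 cores on the opposite strand. The windows of PARP9 and DTX3L are the same bases, chr3:122564318-122564355, read from opposite strands, because these neighbouring genes start back to back. Those of IFIH1 (chr2:162318682-162318719), DDX60 (chr4:168318817-168318854) and TRIM21 (chr11:4393656-4393699) lie close to annotated starts, as do those of OAS3 (chr12:112938448-112938485) and EIF2AK2 (chr2:37156963-37157000), and that of BST2 is at chr19:17405731-17405774.

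The median log2 fold change was 0.13 for the 22 tested genes with a core and 0.22 for the 11 tested genes with a promoter in the table and no core, with ranges of -0.54 to 1.44 and -0.39 to 0.62. Of the 9 genes called higher with the term for the side, 7 had a core, and UBE2L6 and STAT2 had none in these windows. Of the 7 genes with a promoter in the table but too few reads to be tested, 5 had a core, among them BST2 with 2 overlapping cores. The gamma-activated site core TTCNNNGAA, an element of promoters that respond to interferon gamma, occurred in 11 of the 40 genes (27.5%), against 9.38% of genes in the table. These are matches of letters, and whether a factor was bound there was not measured.

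Per kilobase of merged exons in siCtrl, the highest levels in the whole group were those of IFITM2 (19.8 RPKM), IFITM3 (19.5), MAVS (19.4) and LGALS3BP (19.0), and neighbours in this order differed by little. With the length of the main annotated transcript in place of merged exons the order was IFITM3 (90.8), IFITM2 (31.6) and LGALS3BP (29.5). MAVS, the adaptor through which both RNA helicases signal, had 223, 217 and 244 CPM in siCtrl and 232 and 254 CPM in siFAM53C. Its libraries overlapped between the groups, and its log2 fold change was 0.093 (SE 0.11).

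IFIH1 (ENSG00000115267, chromosome 2, 162267074 to 162318684, minus strand) encodes MDA5, which binds long double-stranded RNA. It had 7.26, 7.33 and 5.55 CPM in siCtrl and 11.2 and 8.74 CPM in siFAM53C, so both siFAM53C libraries were above every siCtrl library. IFIH1 differed by 0.57 on the log2 scale (edgeR, SE 0.23, adjusted p = 0.2663), which was 0.62 and 0.65 within the sides. DHX58 (ENSG00000108771) encodes LGP2, a relative of MDA5 that lacks the signalling domain and modulates it. Its levels were 2.93, 3.92 and 4.61 CPM in siCtrl and 5.52 and 7.43 CPM in siFAM53C, again without overlap. DHX58 had a log2 fold change of 0.76 (edgeR, SE 0.30, adjusted p = 0.2448), with 0.69 and 0.68 within the sides. With the term for the side the adjusted p was 0.0358 for IFIH1 and 0.08021 for DHX58.

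The other sensors differed less. TRIM25, a ubiquitin ligase that acts on RIG-I, had 123, 119 and 111 CPM in siCtrl and 130 and 133 CPM in siFAM53C, without overlap but with a log2 fold change of 0.16 (SE 0.099). EIF2AK2 encodes PKR, the kinase that halts translation when it binds double-stranded RNA, and had a log2 fold change of 0.13 (SE 0.12). That of IFI16, a DNA sensor, was 0.11 (SE 0.19). TLR3, the endosomal receptor for double-stranded RNA, had the lowest value of the 39 genes, -0.54 (edgeR, SE 0.47, adjusted p = 0.6451). Its levels were 9.76, 14.6 and 6.50 CPM in siCtrl and 10.1 and 3.99 CPM in siFAM53C. The siCtrl libraries alone thus differed by more than the groups did.

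The oligoadenylate synthetases, which make the second messenger that activates the nuclease RNase L, were not alike. Per kilobase of merged exons in siCtrl, OAS3 had 3.96 RPKM against 0.163 for OAS1, and by the main annotated transcript 10.8 against 1.30. OAS3 had 66.7, 72.9 and 74.5 CPM in siCtrl and 62.9 and 65.1 CPM in siFAM53C. It was the gene whose siFAM53C libraries were below every siCtrl library, with a log2 fold change of -0.16 (edgeR, SE 0.11, adjusted p = 0.5211). OAS1 had 0.98, 1.88 and 3.51 CPM in siCtrl and 1.66 and 4.07 CPM in siFAM53C, and OAS2 ranged from 0.58 to 1.47 CPM and from 0.76 to 2.12 CPM. Their log2 fold changes of 0.44 (SE 0.60) and 0.71 (SE 0.66) were no larger than about their errors, and both were below 0 without siFAM53C replicate 2 (-0.35 and -0.21). OASL, a relative without the enzyme activity, was not tested, with 0 to 7 counts per library.

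**Figure D3:**
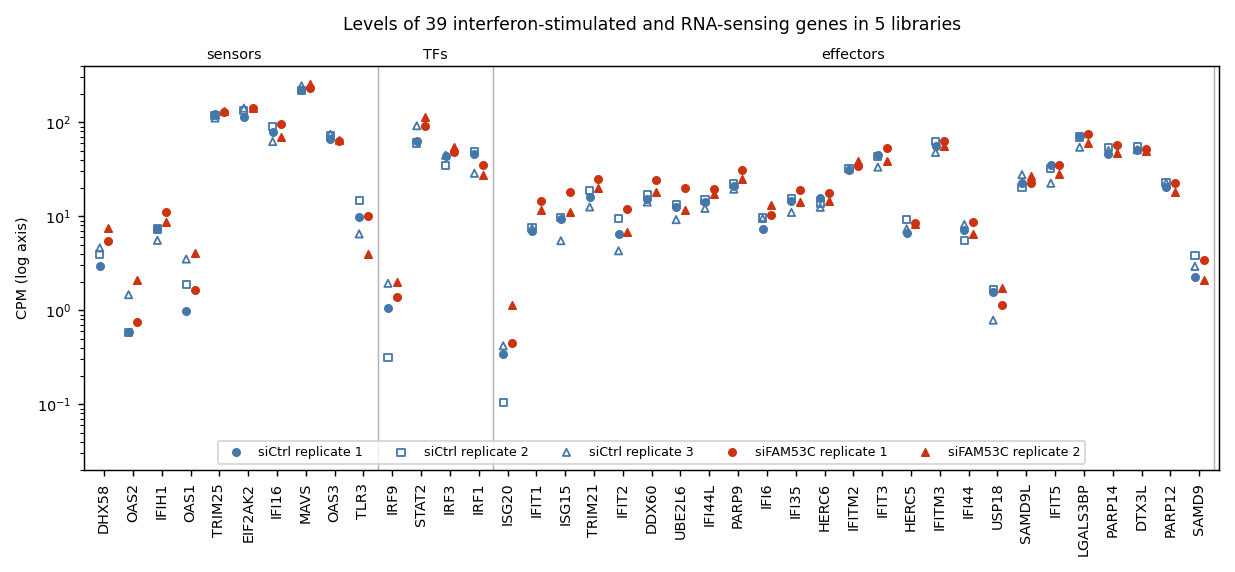
Level of each tested gene in each library, in CPM on a log axis, ordered by role (TFs are transcription factors). Blue symbols are siCtrl replicates 1 to 3 and red symbols siFAM53C replicates 1 and 2. The levels run from about that of ISG20 (0.10 CPM in siCtrl replicate 2) to that of MAVS (254 CPM in siFAM53C replicate 2).

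Among the transcription factors, STAT2 (ENSG00000170581, chromosome 12, 56341597 to 56360203, minus strand), a subunit of the interferon-activated complex, had 63.7, 60.3 and 91.9 CPM in siCtrl and 90.4 and 115 CPM in siFAM53C. The groups overlapped because siCtrl replicate 3 was slightly above siFAM53C replicate 1. STAT2 had a log2 fold change of 0.51 (edgeR, SE 0.20, adjusted p = 0.2492), with 0.54 and 0.32 within the sides, and 0.45 (adjusted p = 0.001953, edgeR) with the term for the side. Without siCtrl replicate 3 it was called higher (0.73, adjusted p = 0.007837, edgeR), where 2.76% of all genes were called higher and 5.91% lower in that fit. IRF3, the factor that the sensors activate by phosphorylation, had 44.2, 34.6 and 44.6 CPM in siCtrl and 48.1 and 54.9 CPM in siFAM53C. These groups did not overlap, and the log2 fold change was 0.32 (edgeR, SE 0.15, adjusted p = 0.3146), with 0.30 on both sides. Of its exon bases, 734 are shared with BCL2L12 on the opposite strand.

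IRF1, which interferon gamma induces, lay in the other direction. Its levels were 45.5, 49.2 and 28.7 CPM in siCtrl and 35.3 and 27.3 CPM in siFAM53C, and siCtrl replicate 3 lay within the range of the siFAM53C libraries. The log2 fold change of IRF1 was -0.39 (edgeR, SE 0.24, adjusted p = 0.4754), with -0.42 and -0.071 within the sides. Without siCtrl replicate 3 it was called lower (-0.59, adjusted p = 0.03388, edgeR). Opposite-strand genes, among them IRF1-AS1, overlap 2805 of the 12265 exon bases of IRF1. IRF9, the DNA-binding subunit of the complex with STAT2, was near the detection limit with 1.06, 0.31 and 1.94 CPM in siCtrl and 1.40 and 2.00 CPM in siFAM53C. The log2 fold change of IRF9 was 0.62 (SE 0.68) and its groups overlapped. Of the 6471 exon bases of IRF9, 1544 are shared with another annotated gene on the same strand and 521 with one on the opposite strand. How reads on shared bases were counted is not given in the sources used here. IRF7, which amplifies interferon production, was not tested, with 2 to 14 counts per library.

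The effectors held the largest differences. IFIT1 (ENSG00000185745, chromosome 10, 89392546 to 89406487, plus strand) encodes a protein that binds RNA lacking the methylated cap of host messages. It had 7.05, 7.54 and 7.44 CPM in siCtrl and 14.6 and 11.6 CPM in siFAM53C. The siCtrl libraries were close together and the siFAM53C libraries well above them, a ratio of mean CPM of 1.78. For IFIT1 the log2 fold change came to 0.83 (edgeR, SE 0.20, adjusted p = 0.064), the lowest p of the 39 genes, and it was 0.99 and 0.63 within the sides. DESeq2 gave 0.84 (adjusted p = 0.01034), and the fit with the term for the side 0.85 (adjusted p = 0.004127, edgeR). Without siCtrl replicate 3 IFIT1 was also called (adjusted p = 0.04124, edgeR), and without any other library it was not (adjusted p from 0.1797 to 0.4491, edgeR).

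IFIT1 lies in a cluster of 4 related genes (IFIT2, IFIT3, IFIT1 and IFIT5) at 89283694 to 89421605 of chromosome 10. IFIT2, which binds IFIT1 and AU-rich RNA, had 6.54, 9.47 and 4.30 CPM in siCtrl and 12.0 and 6.88 CPM in siFAM53C, and its log2 fold change of 0.48 (SE 0.38) came with overlapping groups. It was 0.017 without siFAM53C replicate 1 and 0.83 without replicate 2. Within the sides IFIT2 differed by 0.61 and 0.67. IFIT3, a scaffold of the same complex and the highest of the 4 per kilobase of merged exons in siCtrl (7.98 RPKM), had a value of 0.18 (SE 0.18), and IFIT5 one of 0.071 (SE 0.21). The cluster thus ranged from 0.071 to 0.83 over neighbouring genes, and 524 exon bases of IFIT2 are shared with another annotated gene on the same strand.

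ISG15 (ENSG00000187608, chromosome 1, 1001138 to 1014540, plus strand) is a ubiquitin-like protein that is joined to other proteins. It had 9.38, 9.68 and 5.50 CPM in siCtrl and 18.2 and 11.0 CPM in siFAM53C, with no overlap and a ratio of mean CPM of 1.79. On the log2 scale ISG15 differed by 0.83 (edgeR, SE 0.31, adjusted p = 0.2303). Within the sides ISG15 differed by 0.93 and 0.99, and with the term for the side by 0.96 (adjusted p = 0.0008866, edgeR), the lowest adjusted p of the group in that fit. UBE2L6, the conjugating enzyme of the ISG15 pathway, had 12.7, 13.3 and 9.22 CPM in siCtrl and 20.0 and 11.8 CPM in siFAM53C. Its siFAM53C replicate 2 lay among the controls, and the log2 fold change was 0.44 (edgeR, SE 0.27, adjusted p = 0.4734). Without siFAM53C replicate 1 the value of UBE2L6 was 0.0016. The ligase HERC5 (0.12, SE 0.23) and its relative HERC6 (0.22, SE 0.18) differed by about their errors or less, as did the ISG15 protease USP18 (0.092, SE 0.50).

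PARP9 and DTX3L, which start back to back, had unlike values. PARP9 (ENSG00000138496), an ADP-ribosyltransferase family member that acts in a complex with the ubiquitin ligase DTX3L, had 20.8, 22.0 and 19.4 CPM in siCtrl and 30.9 and 24.8 CPM in siFAM53C. The groups did not overlap, and the log2 fold change of PARP9 was 0.42 (edgeR, SE 0.15, adjusted p = 0.2111), with 0.53 and 0.35 within the sides. DTX3L had 50.7, 55.1 and 51.1 CPM in siCtrl and 51.7 and 49.9 CPM in siFAM53C. Its value was -0.041 (SE 0.11), smaller in size than its error, and its libraries overlapped between the groups. The genes share 139 exon bases on opposite strands. PARP14, of the same family, had a value of 0.068 (SE 0.13) and PARP12 one of -0.10 (SE 0.16).

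TRIM21, an intracellular antibody receptor and ubiquitin ligase, had 16.1, 19.0 and 12.6 CPM in siCtrl and 24.6 and 19.9 CPM in siFAM53C. TRIM21 had a log2 fold change of 0.49 (edgeR, SE 0.21, adjusted p = 0.2805), with 0.50 and 0.66 within the sides. DDX60, a helicase linked to RIG-I signalling, had 15.2, 17.0 and 14.2 CPM in siCtrl and 24.4 and 18.0 CPM in siFAM53C. Its value was 0.45 (edgeR, SE 0.18, adjusted p = 0.2606), with 0.60 and 0.34 within the sides. In both genes the siFAM53C libraries were above every control. IFI44L, which lies beside IFI44, had 14.1, 14.9 and 12.2 CPM in siCtrl and 19.6 and 17.4 CPM in siFAM53C. Its groups did not overlap either, and the log2 fold change of IFI44L was 0.43 (edgeR, SE 0.17, adjusted p = 0.2406), whereas that of IFI44 was 0.12 (SE 0.26) with opposite signs within the sides (0.45 and -0.33).

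Among the remaining effectors, IFITM3, a membrane protein that blocks the entry of viruses, had 56.5, 62.2 and 47.8 CPM in siCtrl and 63.8 and 56.6 CPM in siFAM53C, which is 0.12 on the log2 scale (SE 0.14). IFITM2, its close paralogue, had 31.5, 32.0 and 32.0 CPM in siCtrl and 34.6 and 38.9 CPM in siFAM53C. Its value was 0.21 (SE 0.12), small but without overlap. Reads of IFITM2 and IFITM3 are hard to assign because the genes are near copies, and the handling of reads that map to several places is not given in the sources used here. IFI6, a mitochondrial protein, had a value of 0.41 (SE 0.22) without overlap, and IFI35 one of 0.28 (SE 0.22) with overlap. LGALS3BP (0.069), SAMD9L (0.081) and SAMD9 (-0.12) each lay within 1 standard error of 0. ISG20, an exonuclease, had the highest value of the group, 1.44, but with an SE of 0.81 and 0.10 to 0.42 CPM in siCtrl against 0.45 and 1.15 CPM in siFAM53C.

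**Figure D4:**
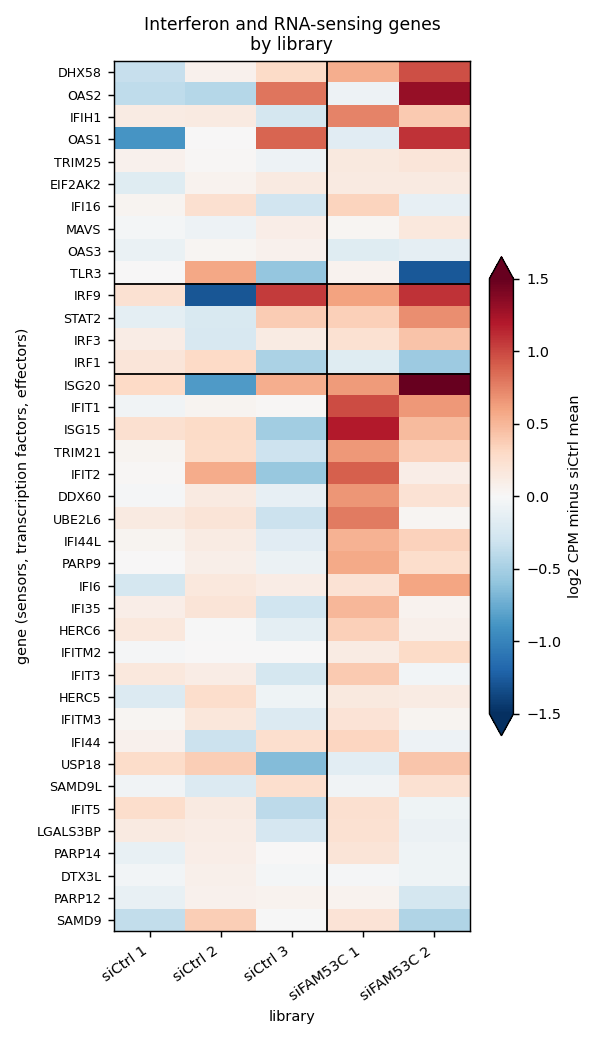
Log2 CPM of each tested gene in each library minus the mean of the siCtrl libraries (colour, red above and blue below), with rows in 3 blocks by role. Most effector rows are red in siFAM53C replicate 1 and paler in replicate 2, whereas OAS1 (1.08), OAS2 (1.31), IRF9 (1.09) and ISG20 (1.82) are highest in siFAM53C replicate 2.

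The siFAM53C libraries differed from each other in a pattern that the controls shared. Across the library split, 20 of the 39 genes were lower in siCtrl replicate 3 than in the mean of the other controls and also lower in siFAM53C replicate 2 than in replicate 1. In this set were TLR3 (-0.87 and -1.33 on the log2 scale), IFIT2 (-0.86 and -0.80), ISG15 (-0.78 and -0.72) and IRF1 (-0.72 and -0.37). Another 13 were higher in both, among them OAS1 (1.31 and 1.25), OAS2 (1.21 and 1.39), IRF9 (1.57 and 0.49), STAT2 (0.57 and 0.34) and DHX58 (0.43 and 0.42), and 6 were mixed. How many of all genes shifted alike was not counted. Over all genes tested, the deviations of siCtrl replicate 3 and siFAM53C replicate 2 from their group means correlated at 0.37. The pattern thus cannot be called particular to this group of genes. For TLR3, OAS1, OAS2 and IFIT2 the shifts across the split were larger in size than the log2 fold change between the siRNAs, and for DHX58 they were smaller. They were also larger for further genes, such as IFI35 (-0.45 and -0.45, against 0.28). Among these was UBE2L6 (-0.49 and -0.76, against 0.44), which was called with the term for the side. Without siFAM53C replicate 1, the log2 fold changes of ISG15 (0.42), IFIH1 (0.37), TRIM21 (0.32), PARP9 (0.25) and DDX60 (0.21) were smaller by over 1.5 times, and without replicate 2 that of STAT2 was (0.33). What the sides stand for was not tested, and the labels give no batch.

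**Figure D5:**
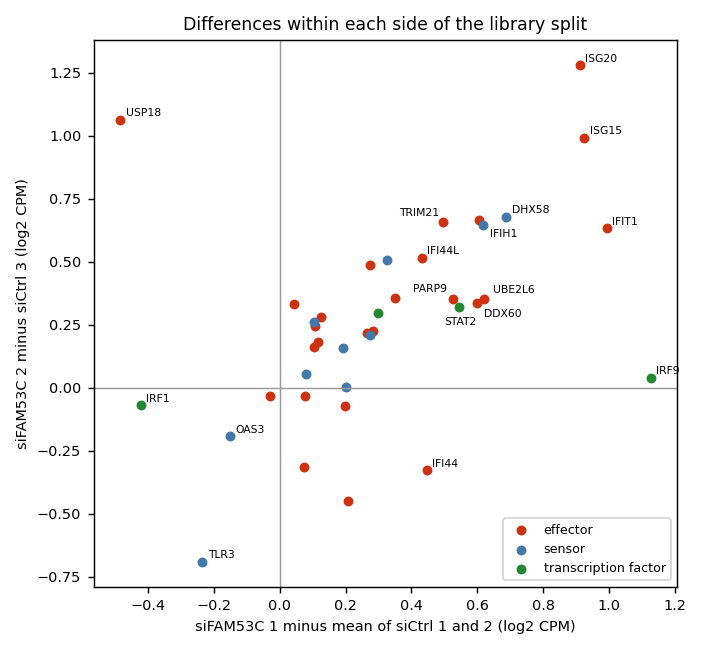
Difference in log2 CPM for each tested gene within the sides of the library split: siFAM53C replicate 1 minus the mean of siCtrl replicates 1 and 2 (x axis) and siFAM53C replicate 2 minus siCtrl replicate 3 (y axis), coloured by role. In the upper right quadrant lie 29 of the 39 genes (36.1% of all genes were above 0 on both axes), with ISG15 (0.93 and 0.99) and IFIT1 (0.99 and 0.63) far from the origin, and USP18, IFI44 and IRF9 off the diagonal.

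Of the 49 genes, 10 were too low to be tested, with at most 14 counts in any library. RSAD2 (viperin) and its neighbour CMPK2, which are strongly induced by interferon in many cells, had 0 counts in all 5 libraries, and so did the interferon genes IFNB1, IFNL1, IFNL2, IFNL3, IFNK and IFNG. A count of 0 allows up to 3 counts, or 0.113 to 0.157 CPM depending on the library, and covers counting error only. BST2 (tetherin) had 0 counts in each siCtrl library and 2 and 0 in siFAM53C, and XAF1 had 0 in each siCtrl library and 4 and 1 in siFAM53C. IFI27 had 1 count in siCtrl replicate 3 and 0 elsewhere, and MX1 and MX2, dynamin-like antiviral GTPases, had 0 to 8 counts. IFITM1 had 0 to 8 counts as well. IRF7 had 3, 14 and 2 counts in siCtrl and 2 and 2 in siFAM53C. Differences between the groups were not tested in these genes, whose counts are too few at this depth.

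The other genes of the pathway give the setting. Of 36 further genes of sensing and interferon signalling, listed by function, 26 were tested, and 0 were called higher and 0 lower (edgeR). At an unadjusted p under 0.05, 1 was higher (STING1) and 3 lower (JAK1, TBK1 and IFNAR1), and the fit that adds the side called 2 higher and 3 lower. Over all genes these shares were 6.61% and 10.5% unadjusted and 6.76% and 10.7% with the side, so 1 to 3 of 26 genes is close to the background. Their median log2 fold change was -0.0069, with 12 above 0 and 14 below. JAK1, the kinase on the interferon receptor, had 178, 188 and 209 CPM in siCtrl and 148 and 152 CPM in siFAM53C, which is -0.35 on the log2 scale (edgeR, SE 0.11, adjusted p = 0.1559). IFNAR1, a chain of the type I interferon receptor, had 93.0, 97.9 and 103 CPM in siCtrl and 79.2 and 82.3 CPM in siFAM53C, a value of -0.28 (edgeR, SE 0.10, adjusted p = 0.2225). TBK1, the kinase that activates IRF3, had 39.3, 46.4 and 46.5 CPM in siCtrl and 36.6 and 29.6 CPM in siFAM53C, a value of -0.41 (edgeR, SE 0.14, adjusted p = 0.2024). In all 3 the siFAM53C libraries were below every control.

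Other receptor chains varied about 0, from -0.39 for IFNAR2 and -0.25 for IFNGR1 to 0.44 for IFNLR1, with IFNGR2 at -0.12 and IL10RB at 0.011. IFNAR2 and IL10RB share 2038 and 1732 exon bases with the annotated gene IFNAR2-IL10RB on the same strand. STING1, the adaptor for DNA sensing, had 36.1, 31.9 and 45.2 CPM in siCtrl and 45.2 and 55.9 CPM in siFAM53C, which is 0.42 on the log2 scale (edgeR, SE 0.17, adjusted p = 0.2645). TICAM1, the adaptor of TLR3, had a value of 0.43 (edgeR, SE 0.19, adjusted p = 0.2936). With the term for the side STING1 and TICAM1 were the genes called higher and JAK1, TBK1 and IFNAR1 those called lower. RIGI had a value of 0.20 (SE 0.17), and ADAR, the enzyme that edits double-stranded RNA, had a value of -0.0014 (SE 0.099). Of the 10345 exon bases of RIGI, 4471 are shared with another annotated gene on the same strand. Of the interferon genes listed, IFNE was the only one tested, with 0.78 to 2.88 CPM in siCtrl and 2.42 and 4.58 CPM in siFAM53C (log2 fold change 0.91, SE 0.55), and IFNA1 had 0 to 8 counts. MIR31HG on the opposite strand shares 557 of the 878 exon bases of IFNA1.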

How the data were processed

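Raw counts per gene were deposited by the authors for 3 siCtrl and 2 siFAM53C libraries, without normalization or filtering; the methods speak of duplicates, and all 5 libraries were used. Reads had been trimmed with CutAdapt 2.10, mapped by HISAT2 (hg38, reverse strandedness) and assigned to genes by featureCounts; the annotation release and the strand setting of the counting are not given in the sources used here. Columns were matched to samples by the descriptions in the labels. Symbols and positions are from GENCODE release 44 on GRCh38, which covers 56105 of 64252 identifiers. Totals per library set the precision of low genes.

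In R 4.3.3 and edgeR 4.0.16, genes were filtered (filterByExpr, minimum count 10 and total 15), scaled by TMM and fitted by condition only with robust quasi-likelihood, and p was adjusted by Benjamini-Hochberg over all genes tested (threshold 0.05, two-sided). Log2 CPM used a prior count of 2. Alternatives were DESeq2 1.42.0, voom in limma 3.58.1, other size factors and filters, an unadjusted p, replicate blocks, each library left out, a term for the library split and a non-robust fit, the last 2 added later. Fits were tested on counts simulated with an effect of the condition only. No shift between the sides was simulated, so that test does not cover one. The genes, lists and naming rule were chosen with earlier results of these data known; all 49 genes are named, with values per library for those at an unadjusted p under 0.05, those called with the split term, the 3 highest per exon length and the tested transcription factors, and pathway genes at an unadjusted p under 0.05. Values per library for TLR3, TRIM25, OAS1, OAS3, IFIT2 and DTX3L were added after their values were seen. RPKM are CPM per kilobase of exon, computed here.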

Additional observations from a re-analysis of the deposited data

How the results depend on the processing

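With 2 siFAM53C libraries, and 3 controls that differ among themselves, some genes of few counts (OAS1, IRF9 and USP18) had errors larger than their differences. FAM53C was called lower under every alternative (log2 fold change from -2.07 to -1.42), and the median of the 39 genes stayed between 0.15 and 0.28. The number of these genes called higher was 0 with the main settings and 1 with DESeq2's Wald test. With no filter on low counts it was 3, where 375 of the 26587 genes in that fit were called higher and 961 lower. At an unadjusted p under 0.05 it was 9, and with the term for the library split also 9. It was 0 to 2, and the number called lower 0 to 1, when a library was left out; the 2 (IFIT1 and STAT2) and the 1 (IRF1) came without siCtrl replicate 3. Over all genes, 75 were called higher and 533 lower with the main settings, 121 and 415 with library totals only, and from 6 to 1037 and from 157 to 1636 over the alternatives. The cause was not tested.

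Whether the libraries are paired is not known: no label names a shared culture or day, and titles and column names number the other siFAM53C library 2 and 3. The correlation of deviations from the group means was 0.17 and -0.28 for libraries of the same title number, and 0.17 and 0.37 for those of the same column number. The deviations of siFAM53C replicate 1 mirror those of replicate 2, the only other library of that group, so these correlations cannot settle the pairing. With a replicate block by titles 1 gene was called higher (STAT2) and 1 lower (IRF1), and with a replicate block by column numbers 8 were called higher. Of the 15341 genes, these fits called 355 higher and 856 lower, and 642 higher and 1350 lower.

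Among the alternatives run, signs turned in genes that none of them called. DTX3L was 0.030 with library totals only. With the block by titles IFI16 (-0.036), IFIT5 (-0.11), LGALS3BP (-0.053) and USP18 (-0.20) were below 0, and with the block by column numbers IFI44 (-0.034) and SAMD9L (-0.016) were below and SAMD9 (0.075) above. When a library was left out, values ran from -0.15 to 0.32 for IFI16, -0.11 to 0.31 for IFI44, -0.065 to 0.38 for IFIT3, -0.097 to 0.21 for IFIT5, -0.10 to 0.22 for LGALS3BP, -0.35 to 1.02 for OAS1, -0.21 to 1.29 for OAS2, -0.28 to 0.046 for PARP12, -0.075 to 0.19 for PARP14, -0.50 to 0.18 for SAMD9, -0.065 to 0.23 for SAMD9L and -0.25 to 0.36 for USP18.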
